A study of Mus musculus with 6 samples.

Results

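The miR-23, miR-24 and miR-27 microRNAs (miRNAs) were measured in spleen cells of estrogen-treated lupus mice. They were found by name, as the probes for mouse miR-23a, miR-23b, miR-24, miR-27a and miR-27b, without the probes for their passenger strands, which have a star in their names. All 5 were among the 566 mouse miRNA probes of the deposited table, and the table had 0 star probes of these hairpins. Of the 5, 4 were tested. These had a mean over all samples above a detection floor of 53.3 normalized counts, which is 2 SD above the mean of the 8 negative controls. miR-27b lay under it and was described by its values alone.

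The donors were mice of NZB/WF1, a hybrid strain whose females spontaneously get a lupus-like illness. They carried an implant with 17alpha-ethinyl estradiol (EE, a synthetic estrogen that differs from the natural hormone by an added ethinyl group), an implant with 17-beta estradiol (E2, the natural hormone) or an implant without hormone (placebo). Treatment began at an age of 6 to 7 weeks, and splenocytes were taken after 9 weeks of treatment. Each of the 3 groups held 2 samples, and total RNA was counted with the nCounter assay, which reads colour-coded barcodes of single molecules without amplification. All mice were female and of the same cross. The doses of hormone are not stated in the labels. Whether samples within a group stem from different animals is not stated either, and p-values then cover only the variation among the samples at hand.

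These miRNAs lie in clusters, in which neighbouring hairpins are cut from a shared precursor transcript. In mouse blood cell development the Mir23a cluster is a target of the myeloid factor PU.1, and its forced expression favours myeloid over B lymphoid output. In T cells, miR-24 and miR-27 restrain the cytokine programme of T helper 2 cells, miR-23a restrains the cytotoxicity of CD8+ T cells, and miR-23b dampens inflammatory signalling in autoimmune disease.

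In the RefSeq annotation of build GRCm38.p6, the hairpins of miR-23a, miR-27a and miR-24-2 span 404 bases on the plus strand at chr8:84208518-84208921. Those of miR-23b, miR-27b and miR-24-1 span 792 bases on the plus strand at chr13:63300484-63301275. Mature sequences were matched by name for 4 of the 5 probes, with the 3p strand taken for a name without a suffix, and the entry of miR-23b was missing. They are shown with the seed, bases 2 to 8, which sets the targets, in capitals.
miR-23a: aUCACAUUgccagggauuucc
miR-27a: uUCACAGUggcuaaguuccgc
miR-27b: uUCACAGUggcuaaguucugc
miR-24: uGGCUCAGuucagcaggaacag

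Counted from 1 at the 5′ end, miR-27a and miR-27b share their seed and differ at 1 of 21 bases (C19U). Such a difference may not keep their probes fully apart, which was not tested. The seeds of miR-23a and miR-27a differ at 1 position (U7G), and miR-24 has a seed of its own. The miR-24 sequence is the same from both clusters, so its probe adds up both loci, as the 2 hairpins show, with the mature strand in capitals.
Mir24-2, chromosome 8: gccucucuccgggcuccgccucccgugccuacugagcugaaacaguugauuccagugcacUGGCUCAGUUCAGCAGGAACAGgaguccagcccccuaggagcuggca
Mir24-1, chromosome 13: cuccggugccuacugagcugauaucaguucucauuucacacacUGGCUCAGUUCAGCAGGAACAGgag

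Across the series, 95 mouse miRNAs were tested. Summed values over all probes were 167152 and 168709 with EE, 178633 and 175477 with E2 and 205209 and 188433 with placebo; they came after normalization, so the depth of the raw counts is unknown. Markers of lymphocytes were abundant, as the tissue label implies: the summed values of the 5 listed lymphoid miRNAs lay at 21508 to 21750 with EE, 31184 to 33690 with E2 and 48341 to 57839 with placebo. The 3 erythroid miRNAs ran the other way, at 7187 to 7933 with EE, 4376 to 5230 with E2 and 596 to 1393 with placebo. The 5 myeloid miRNAs summed to 7237 to 8009 with EE, 7794 to 8809 with E2 and 7361 to 7382 with placebo. The 1 liver and 3 muscle markers were under the floor. Changes are read against the centre of the 95 miRNAs, which moved with the scaling. Rescaling by summed mouse miRNAs moved the median log2 fold change by 0.36 with EE and 0.21 with E2 against placebo and by 0.15 with EE against E2. In the same order, ligation controls moved it by -0.20, 0.32 and -0.52, housekeeping mRNAs by 0.11, -0.20 and 0.31, positive controls by -0.14, -0.15 and 0.02, and the median tested miRNA by 0.02, 0.11 and -0.09.

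The comparison of EE with placebo asked how the synthetic estrogen altered these miRNAs. miR-23a, the first miRNA of the chromosome 8 cluster, was lower with EE and was the only tested member past the threshold. Its probe, mmu-miR-23a, had 508 and 509 normalized counts with EE, 644 and 575 with E2 and 803 and 758 with placebo. Values of the 3 groups did not overlap, with EE lowest, E2 between and placebo highest. The mean was 508.5 ± 0.707 with EE and 780.5 ± 31.8 with placebo (SD, n = 2 each), 1.53-fold lower between means of log2 values. In limma's fit over 95 miRNAs the log2 fold change was -0.62 ± 0.17 (SE), with a 95% interval of -0.98 to -0.25 and a Benjamini-Hochberg adjusted p of 0.0186.

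**Figure D1:**
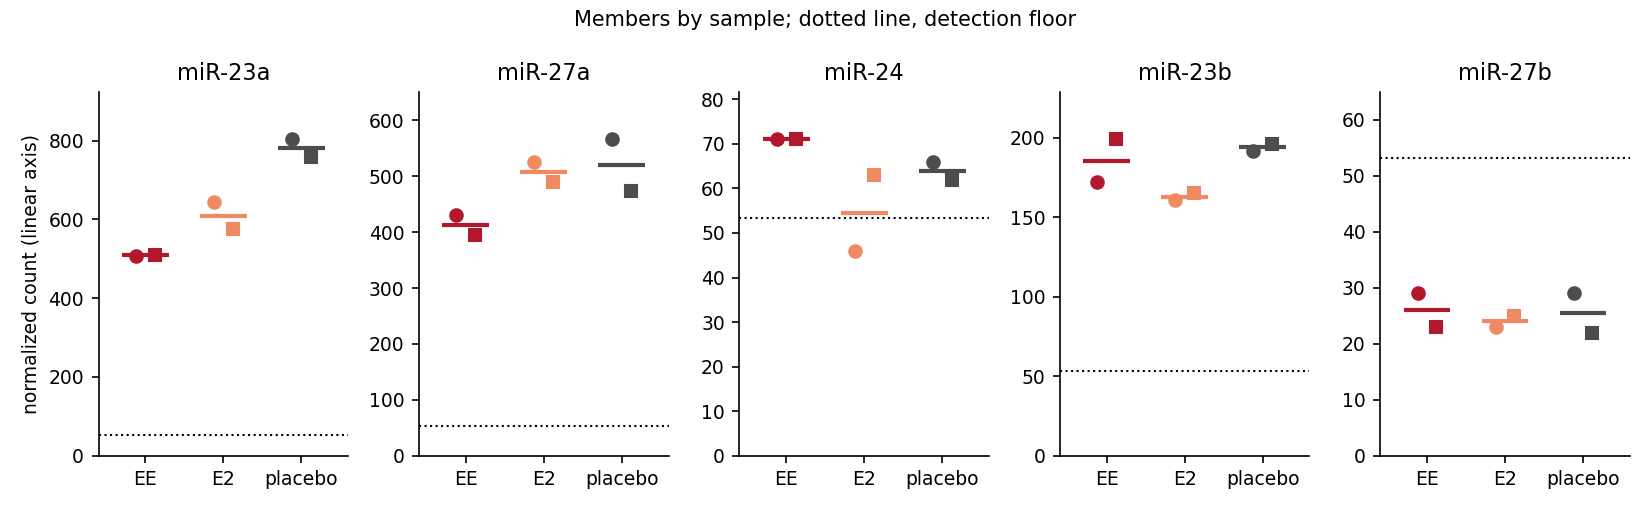
Normalized counts of the 5 members by sample, in EE, E2 and placebo groups; circles are sample 1, squares sample 2, bars group means, and the dotted line is the detection floor of 53.3. miR-23a separates all 3 groups, at 508 and 509 with EE, 644 and 575 with E2 and 803 and 758 with placebo, while miR-27b lies under the floor in every sample.

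The fall of miR-23a was 1 lower call among 4 tested members, against 15.8% of all 95 tested miRNAs called lower in this comparison. It ranked 15 of 95 from the largest fall, and the 95 log2 fold changes had a median of -0.11. Among the alternatives, the filters, the variance settings, the fit of only these groups and leaving out an E2 sample cannot move this log2 fold change. Rescaling by the 100 highest miRNAs moves it little, since their geometric mean differed by only 1.50% across samples. The direction of miR-23a held in all 20 alternative settings, with log2 fold changes of -0.82 to -0.25. The call was lost in 8 of them, among them the fits without EE sample 1 (limma adjusted p 0.11), EE sample 2 (0.0909) or placebo sample 1 (0.0502), and the value was -0.25 after rescaling by the summed mouse miRNAs (0.146).

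The lymphoid markers fell in the same samples: of 4 tested, all 4 were lower with EE, beside 15.8% of all tested miRNAs. Their median log2 fold change of -1.16 stayed negative under every alternative run that could move it, at -1.37 to -0.67. Of 5 tested myeloid markers 1 was higher, miR-223, of neutrophils and other myeloid cells, and 0 were lower. Their median of 0.09 was -0.05 with positive controls, -0.11 with ligation controls and -0.01 without placebo sample 1. The miR-223 call was lost with the median miRNA, ligation controls and quantile normalization. With housekeeping mRNAs or positive controls, among others, 1 myeloid marker was called lower. All 3 erythroid markers were higher, beside 10.5% of all tested miRNAs. The endothelial miR-126-3p was higher too, by a log2 value of 1.07, a call lost with ligation controls. Of the 2 tested stromal markers, miR-145 was higher, by 0.63, and miR-125b-5p had 0.28 without passing (limma adjusted p 0.0355 and 0.433). The miR-145 call was lost, among others, with the median miRNA and without any 1 sample except placebo sample 1. The part of cell composition in the miR-23a value was not tested, and in bulk splenocytes fewer cells of a type and less RNA per cell cannot be told apart.

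**Figure D2:**
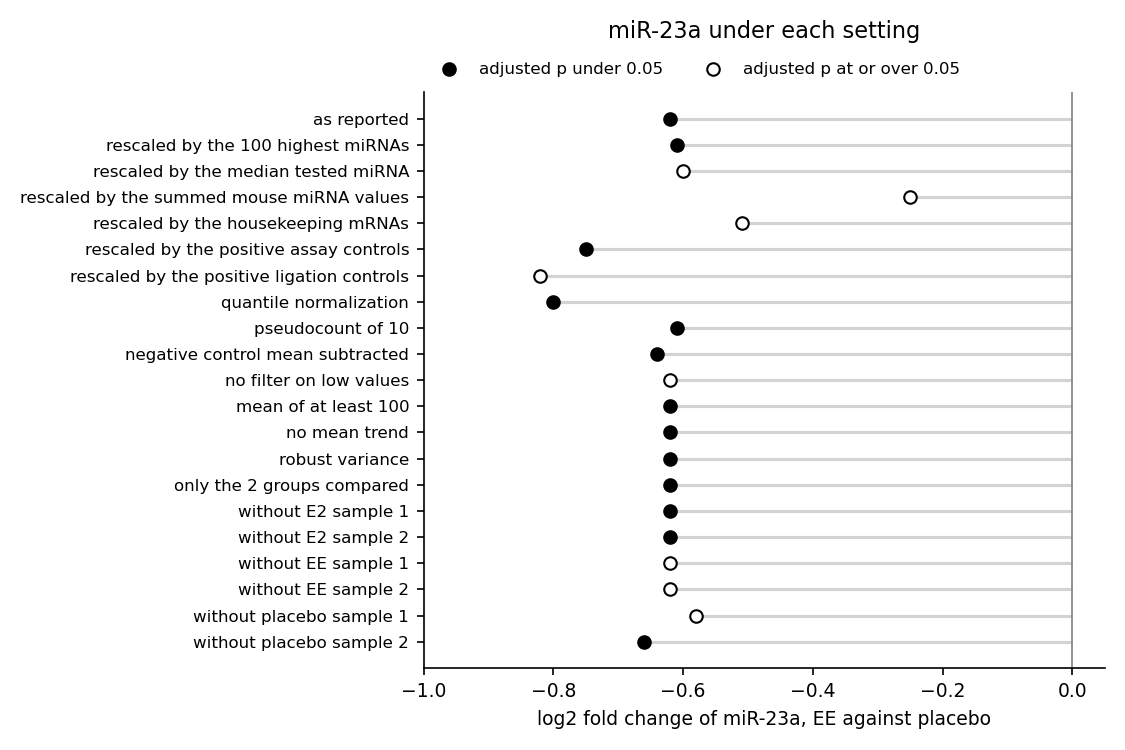
Log2 fold change of miR-23a with EE relative to placebo under the reported setting and 20 alternatives; filled points have a limma adjusted p under 0.05. All points are below 0, between -0.82 and -0.25, and 8 of the 20 alternatives are open points. The filters, the variance settings, the fit of only these groups and leaving out an E2 sample cannot move a point along the axis.

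miR-27a, whose hairpin lies next to that of miR-23a, had 430 and 395 normalized counts with EE, 526 and 489 with E2 and 566 and 474 with placebo. The EE samples were the lowest, and the E2 values lay within the range of the placebo samples. The log2 fold change with EE against placebo was -0.33 ± 0.18 (SE, 95% interval -0.72 to 0.06), and it did not pass in limma (adjusted p 0.183).

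The probe mmu-miR-24, for the species shared by both clusters, had 71 normalized counts in both EE samples, 46 and 63 with E2 and 66 and 62 with placebo. EE values were thus the highest, by a few counts, and E2 sample 1 was under the detection floor. The placebo mean was 64.0, close to the floor of 53.3, so little room for a measured fall was left. The log2 fold change with EE against placebo was 0.15 ± 0.23 (SE, 95% interval -0.35 to 0.65; limma adjusted p 0.631).

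miR-23b, from the chromosome 13 cluster, had 172 and 199 normalized counts with EE, 161 and 165 with E2 and 192 and 196 with placebo. The EE samples spanned both placebo values, whereas the E2 samples lay below them. Its log2 fold change with EE against placebo was -0.07 ± 0.17 (SE, 95% interval -0.45 to 0.32; limma adjusted p 0.749).

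miR-27b, the chromosome 13 counterpart of miR-27a, had 29 and 23 normalized counts with EE, 23 and 25 with E2 and 29 and 22 with placebo. All 6 values were under the floor and the groups overlapped, so no change was detectable. miR-128, which carries the miR-27 seed shifted to its bases 1 to 7, was also under the floor in all 6 samples, at 21 and 22 with EE, 21 and 20 with E2 and 20 and 22 with placebo. Its values overlapped in the same way.

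Between EE and placebo, 3 of the 4 tested members had values that did not overlap, miR-23a, miR-24 and miR-27a, and so did 63.2% of all tested miRNAs. The share among the members is therefore near the background. The median log2 fold change of the 4 members was -0.20, beside -0.11 over all 95.

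The comparison of E2 with placebo asked the same of the natural hormone. 0 of the 4 tested members passed in limma, with 0 at an unadjusted p under 0.05, where 10.5% of all tested miRNAs passed and 21.1% had an unadjusted p under 0.05. miR-23a was nearest, with 609.5 ± 48.8 normalized counts with E2 and 780.5 ± 31.8 with placebo (SD, n = 2 each). Its log2 fold change was -0.36 ± 0.17 (SE, 95% interval -0.72 to 0.01), with a limma adjusted p of 0.221.

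The other log2 fold changes with E2 were -0.25 for miR-23b, with a 95% interval of -0.64 to 0.14, -0.24 for miR-24, with -0.74 to 0.25, and -0.03 for miR-27a, with -0.42 to 0.36. The limma adjusted p-values of these 3 lay between 0.336 and 0.904. Values of miR-23a and miR-23b did not overlap between E2 and placebo, 2 of 4 members beside 63.2% of all tested miRNAs. The members' median log2 fold change was -0.25, beside -0.20 over all 95.

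The lymphoid markers moved in this comparison as well, with 4 of 4 tested lower with E2, beside 6.32% of all tested miRNAs, and a median of -0.66 (-0.86 to -0.34 over the alternatives). That count was 0 after rescaling by the median miRNA or ligation controls and with no filter. All 3 erythroid markers were higher, beside 4.21% of all tested miRNAs, with a median of 2.68 (2.33 to 3.21), and 1 of 3 was with a robust variance. Of 5 myeloid markers miR-223 was higher, by 1.63, and 0 were lower, with a median of -0.31 that was about 0 with ligation controls. However, 1 myeloid marker was called lower, among others, with housekeeping mRNAs, positive controls, quantile normalization and with only these groups fitted. Of the 2 stromal markers miR-125b-5p was lower, by a log2 value of -0.97, and miR-126-3p had 0.27 without passing (limma adjusted p 0.0247 and 0.348). The miR-125b-5p call was lost, among others, with the median miRNA and without E2 sample 1 or either placebo sample. The part of cell composition in the members' values was not tested here either. The E2 and EE comparisons used the same placebo samples, so their values are given side by side and do not support each other.

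**Figure D3:**
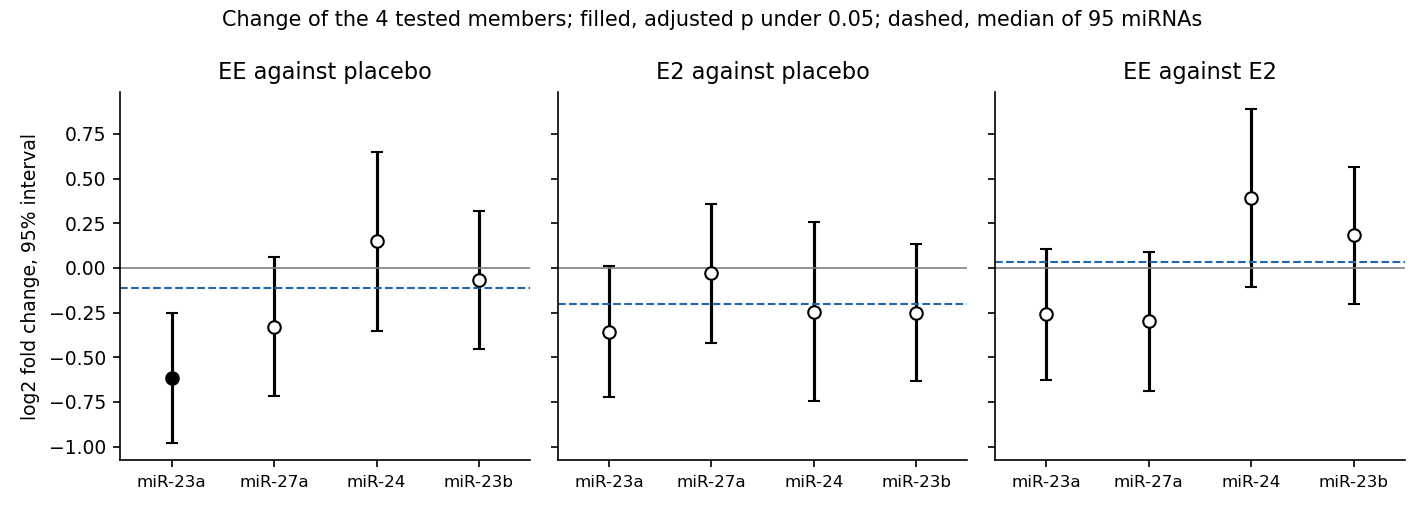
Log2 fold changes of the 4 tested members, with 95% intervals from limma, for EE against placebo, E2 against placebo and EE against E2; filled points passed at an adjusted p under 0.05 and the dashed line is the median of 95 miRNAs. Only miR-23a with EE against placebo, at -0.62, is filled.

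EE was compared with E2 to ask where the estrogen with the added ethinyl group gave different levels. Since doses are not stated, a matched exposure cannot be assumed. 0 of the 4 tested members passed in limma, with 0 at an unadjusted p under 0.05, beside 7.37% and 18.9% of all tested miRNAs. For the chromosome 8 members, miR-23a had a log2 fold change of -0.26 (95% interval -0.62 to 0.11) and miR-27a of -0.30 (-0.69 to 0.09), and both signs turned with housekeeping mRNAs. For miR-24 it was 0.39 (-0.11 to 0.89) and for miR-23b 0.18 (-0.20 to 0.57), whose signs turned with ligation controls, with limma adjusted p-values of all 4 between 0.350 and 0.596.

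All 4 members had values that did not overlap between EE and E2, as had 56.8% of all 95. The intervals reach from falls of 0.69 to rises of 0.89 log2 units, so the data do not show that both estrogens left these miRNAs at equal levels.

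Markers differed between the estrogens as well. Of the 4 lymphoid markers 2 were lower with EE than with E2, beside 4.21% of all tested miRNAs, with a median of -0.54 (-1.06 to -0.23 over the alternatives). Both stromal markers were higher, beside 3.16% of all tested miRNAs, miR-125b-5p by a log2 value of 1.25 and miR-145 by 1.01 (limma adjusted p 0.0121 for each). The summed stromal values lay at 275 to 289 with EE and 136 to 156 with E2, with 204 to 222 with placebo. Of the 5 probes in that sum, 3 had means under the detection floor, and both tested ones had means under 100. The endothelial miR-126-3p was higher by 0.80 (limma adjusted p 0.0320), and of 5 myeloid markers miR-223 was lower, at -0.75 (limma adjusted p 0.0320). The miR-223 call was lost, among others, with the median miRNA, housekeeping mRNAs, quantile normalization and no filter. The myeloid median of -0.08 was 0.07 with summed miRNAs, 0.23 with housekeeping mRNAs and 0.05 without EE sample 1. Of the erythroid markers, 0 of 3 passed in limma, with 0 at an unadjusted p under 0.05. However, 1 erythroid marker was called higher, among others, with housekeeping mRNAs, with positive controls and with only these groups fitted. The lymphoid, stromal and endothelial calls were all lost with the median miRNA, with no filter and without E2 sample 1. Without E2 sample 2 the calls of both lymphoid markers, 1 stromal marker and miR-126-3p were lost, and without either EE sample those of 1 lymphoid marker and miR-126-3p. The part of these differences in the members' values was not tested.

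Members of a cluster can also be compared within a sample, where a scaling factor cancels apart from the pseudocount. The ratio of miR-24 to miR-23a was -2.82 on the log2 scale in both EE samples, -3.78 and -3.17 with E2 and -3.58 and -3.59 with placebo. EE samples lay above all others, and the E2 samples lay on either side of the placebo samples. The mean was higher by 0.76 log2 units with EE than with placebo. The exact two-sided permutation p was 0.333, the smallest that 2 against 2 samples allow. Since miR-24 was under the detection floor in E2 sample 1, at 46 against 53.3, the ratio of -3.78 there is not a measured level. No size is read for the E2 group here, and the miR-24 sizes printed elsewhere for E2 carry this limit.

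The ratio of miR-23b to miR-23a, a choice made after seeing the data, ran the same way. It was -1.56 and -1.35 with EE, -1.99 and -1.79 with E2 and -2.06 and -1.95 with placebo, 0.55 log2 units higher with EE than with placebo. That of miR-27a to miR-23a, the neighbours on chromosome 8, was -0.24 and -0.36 with EE, -0.29 and -0.23 with E2 and -0.50 and -0.68 with placebo. Here both estrogen groups lay above placebo, by 0.29 with EE and 0.33 with E2. Over all 94 other tested miRNAs, the median change relative to miR-23a was 0.51 with EE and 0.16 with E2 against placebo. With EE, the miR-23b value was thus near that background, the miR-27a value below it and the miR-24 value above it. With E2, the miR-27a value was above it. Probes differ in how well they bind, so only the differences between groups can be read, not the ratios themselves.

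**Figure D4:**
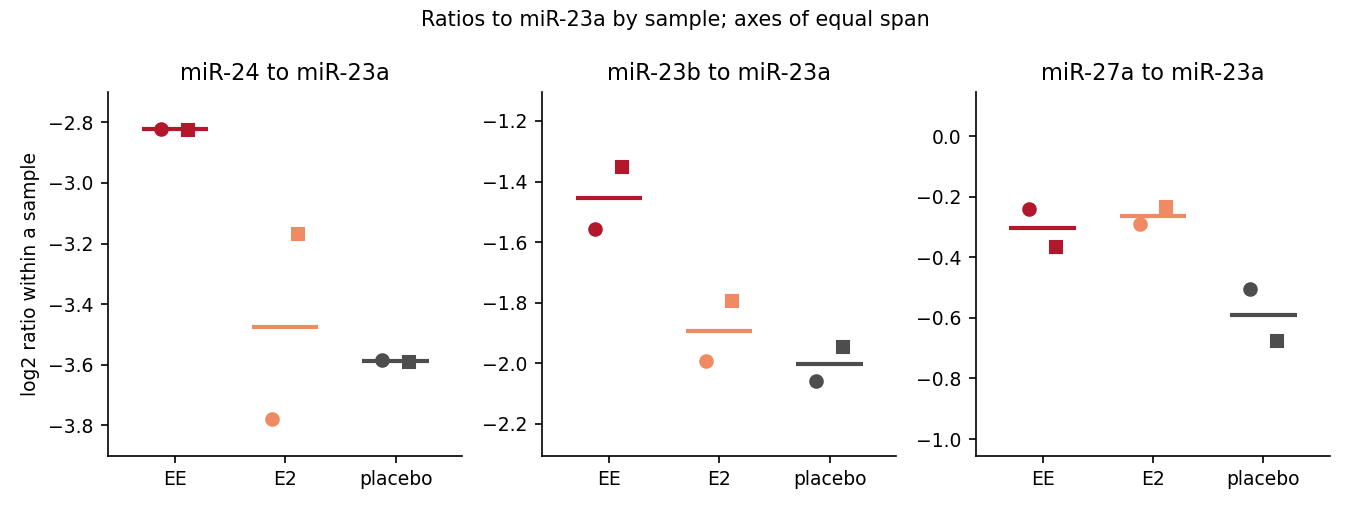
Log2 ratio of miR-24, miR-23b and miR-27a to miR-23a within each sample, by group; circles are sample 1, squares sample 2 and bars group means, on axes of equal span. The EE samples stand above the others for miR-24 (-2.82 in both) and miR-23b (-1.56 and -1.35), and both estrogen groups stand above placebo for miR-27a. Over all 94 other tested miRNAs, the median change relative to miR-23a was 0.51 with EE and 0.16 with E2 against placebo.

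These differences were tested by refitting limma to all other tested miRNAs relative to miR-23a, also chosen after seeing the data. With EE against placebo, the change of miR-24 exceeded that of miR-23a by 0.76 ± 0.27 log2 units (SE, limma adjusted p 0.0371). That of miR-23b exceeded it by 0.55 ± 0.18 (SE, limma adjusted p 0.0285). For miR-27a the difference was 0.29 ± 0.15 (SE, 95% interval -0.05 to 0.62, limma adjusted p 0.124).

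Of all 94 other miRNAs, 54.3% passed in the same fit, so the 2 of 3 members that did are near the background, and every value in it shares the miR-23a measurement. The miR-24 call was lost in 5 of 9 alternatives and the miR-23b call in 6, with limma adjusted p-values up to 0.119 and 0.216. For miR-24 these were the fits without either EE sample or either placebo sample and that with background subtracted. For miR-23b they were background subtraction and each left-out sample except placebo sample 2. With E2 against placebo 0 of 3 members differed from miR-23a in limma, beside 20.2% of all, and with EE against E2 0 of 3, beside 4.26%. Unadjusted, miR-23b and miR-24 had limma p-values of 0.0375 and 0.0382 with EE against E2, and 0 of 3 were under 0.05 with E2 against placebo. The miR-24 values with E2 rest on 1 sample above the floor.

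The profiles most like that of each member were ranked by Pearson r of log2(value + 1) over the 6 samples. These values are descriptions, since the samples fall into 3 groups and share their scaling. miR-23a was closest to miR-181a (0.99), miR-150 (0.98), miR-342-3p (0.98), miR-350 (0.97) and miR-142-3p (0.95), and 4 of these 5 are on the lymphoid list. That list is no clean lineage: miR-142-3p is found in leukocytes of all kinds, and miR-142-5p, the other strand of its hairpin, is on the myeloid list. With EE against placebo, miR-142-3p had a log2 fold change of -0.90 and miR-142-5p of 0.27 (limma adjusted p 0.00124 and 0.343). miR-93 was the most unlike it (-0.97). miR-27a was closest to miR-15b and miR-30c (both 0.94), a probe for both miR-466a-3p and for miR-466b-3-3p (0.93), let-7g (0.92) and let-7b (0.88), and most unlike the combined probe of miR-1937a and miR-1937b (-0.93).

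miR-23b was closest to let-7e (0.90), miR-21 (0.83), miR-30d (0.82), miR-125b-5p (0.80) and miR-29b (0.79), and most unlike miR-2141 (-0.85). miR-24 was closest to miR-125b-5p (0.91), miR-145 (0.80), miR-103 (0.79), miR-484 (0.77) and let-7e (0.76), and most unlike miR-340-5p (-0.77). The 2 profiles closest to miR-24 are the 2 tested miRNAs of the stromal list, both called higher with EE than with E2. miR-24 itself lay near the detection floor of 53.3, at 46 to 71 normalized counts, with E2 sample 1 under it. Its r values therefore rest on small differences in counts, and a link to stromal cells was not tested. Among the members, miR-23a and miR-27a had the highest r, at 0.80, and miR-24 and miR-27a the lowest, at -0.55, although both pairs have hairpins in the chromosome 8 cluster. The r was 0.58 for miR-23b and miR-24, 0.28 for miR-23a and miR-23b, -0.27 for miR-23b and miR-27a and -0.32 for miR-23a and miR-24.

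The fall of miR-23a with EE was set beside 2 immune miRNAs of other loci. miR-150, of mature lymphocytes, had 15277 and 14140 normalized counts with EE, 24211 and 22678 with E2 and 44123 and 35124 with placebo. miR-223 had 1984 and 2042 with EE, 3522 and 3244 with E2 and 1308 and 911 with placebo. The order of the groups in miR-23a, EE below E2 below placebo, is that of miR-150, whereas miR-223 was highest with E2. Relative to miR-23a, with EE against placebo, miR-150 was lower by a log2 value of -0.80 and miR-223 higher by 1.50 (limma adjusted p 3.07e-04 and 8.64e-05). Both were chosen after their values were seen. In that fit 47 of 94 miRNAs were called higher and 4 lower, so a higher call is common there.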

How the data were processed

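Splenocyte RNA was profiled with the nCounter mouse miRNA assay, per the labels. The authors' deposited file lists a whole-number score for each probe in each sample; its normalization, background correction and rounding are not stated in the labels. They were treated as normalized counts, since the geometric mean of the 100 highest miRNAs differed by only 1.50% across samples while that of the positive controls differed by 32.1%. No count model was fitted, and no counting intervals were computed. All 6 columns were used.

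Tests used limma 3.58.1 in R 4.3.3 (lmFit and trended eBayes) on log2(value + 1), with all 3 groups in a single fit, 10.5 total degrees of freedom, two-sided p-values and Benjamini-Hochberg adjustment over 95 miRNAs at a threshold of 0.05. The pseudocount understates changes of low probes. In a test on simulated data of EE against placebo over 95 miRNAs, the fit called 84.8% of miRNAs altered by 1 log2 unit and 97.6% of those altered by 2.

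The members, the marker lists and the naming rule were chosen with earlier results of these data known. The rule named every member, the star probes of their hairpins, miR-128, the 5 tested miRNAs most like each member by Pearson r and the least like, and the tested members of the marker lists, of which counts and medians are given. miR-150 and miR-223 were set beside miR-23a after their values were seen. Sequences are from RefSeq, build GRCm38.p6.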

Additional observations from a re-analysis of the deposited data

How the results depend on the processing

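Each member was refitted under 20 alternatives (19 for miR-24, which a mean filter of 100 left out). The call of miR-23a with EE against placebo (log2 fold change -0.62) ended after rescaling by the median tested miRNA (-0.60, adjusted p 0.0983), the summed mouse miRNAs (-0.25, 0.146), the housekeeping mRNAs (-0.51, 0.397) or the ligation controls (-0.82, 0.0809) and with no filter (-0.62, 0.052). Leaving out a sample gave -0.66 to -0.58, with adjusted p-values of 0.0238 to 0.11. No other member passed in any alternative. Signs turned as follows. For EE against placebo, miR-23b was 0.30 with summed miRNAs, 0.04 with housekeeping mRNAs and -0.17 to 0.04 with a sample left out, miR-27a 0.04 with summed miRNAs, and miR-24 -0.05 with ligation controls. For E2 against placebo, ligation controls gave 0.07 for miR-23b, 0.07 for miR-24 and 0.29 for miR-27a. miR-27a was also 0.08 with the median miRNA, 0.18 with summed miRNAs, 0.05 with quantile normalization and -0.16 to 0.10 with a sample left out, above 0 without E2 sample 2 or placebo sample 1. For EE against E2, housekeeping mRNAs gave 0.05 for miR-23a and 0.01 for miR-27a, and ligation controls gave -0.34 for miR-23b and -0.12 for miR-24. The ratio of miR-24 to miR-23a, EE against placebo (0.76), was 0.74 with a pseudocount of 10 and 0.84 with the negative control mean subtracted. For E2 against placebo (0.11, with miR-24 of E2 sample 1 under the floor) it was -0.19 without E2 sample 2, and 0.42 without E2 sample 1, in the ratio and in the fit relative to miR-23a alike. For miR-27a to miR-23a, EE against E2, both were -0.10 without EE sample 1 and 0.02 without EE sample 2. The cause was not tested.

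For EE against placebo, 25 miRNAs passed (10 higher, 15 lower), against 15 with the median miRNA, 16 with housekeeping mRNAs, 11 with ligation controls (3 higher, 8 lower), 14 with no filter, 16 with a mean filter of 100 and 15 without EE sample 2. The split was 20 higher and 6 lower with summed miRNAs and 6 and 15 with positive controls. For E2 against placebo, 10 passed (4 higher, 6 lower), against 4 with the median miRNA or ligation controls, all higher, 5 with no filter and 6 without E2 sample 1; with summed miRNAs 12 were higher and 3 lower, and with quantile normalization 7 and 5. For EE against E2, 7 passed (3 higher, 4 lower), against 0 with the median miRNA or no filter, 3 with ligation controls, all lower, 1 with a mean filter of 100, 12 with only these groups fitted and 0 to 12 with a sample left out. Summed miRNAs gave 4 higher and 3 lower, housekeeping mRNAs 5 and 0, positive controls 3 and 2, and quantile normalization 4 and 2. No paired analysis was possible because the groups share no replicate numbers in the labels. Raw depth is unknown, and miR-24 and miR-27b are limited by their distance from background.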

Other observations

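Summed over the 5 members, which weights probes by how well they bind, normalized counts were 1210 and 1197 with EE, 1400 and 1317 with E2 and 1656 and 1512 with placebo. As a share of all mouse miRNA counts the sum lay at 1.07% in both EE samples, 1.08% to 1.09% with E2 and 1.09% in both placebo samples. Without miR-150 in the total, the share was 1.23% in both EE samples, 1.33% to 1.34% with E2 and 1.45% to 1.55% with placebo. Within the sum, miR-23a made up 42.0% to 42.5% with EE, 43.7% to 46.0% with E2 and 48.5% to 50.1% with placebo, and miR-23b 14.2% to 16.6%, 11.5% to 12.5% and 11.6% to 13.0%. The miR-23a share thus had the order of its counts, with EE lowest, and the miR-23b share was highest with EE.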
